A study of Acropora aff. hyacinthus sp. E JTL-2012 with 12 samples.

Results

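This account covers 19 of the 16980 contigs of a reef coral transcriptome, those described as a cryptochrome, as a member of the circadian clock or as a timeless protein. They were chosen by words in the description column of the deposited table: cryptochrome, circadian, timeless, aryl hydrocarbon receptor nuclear translocator-like, hepatic leukemia factor, thyrotroph embryonic factor and photolyase. The matches were 11 cryptochrome contigs, 4 contigs of the ARNT-like protein ARNTL1 (also called BMAL1), 1 contig of thyrotroph embryonic factor (TEF) and 3 timeless contigs. No contig carried the words circadian, hepatic leukemia factor or photolyase. Contigs that share a description are treated as separate rows, since they may be different genes or pieces of the same gene. Whether a contig comes from the coral or its symbionts is not stated.

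The study followed 6 colonies of the table coral Acropora aff. hyacinthus sp. E JTL-2012, each split into a fragment in pool 300 and a fragment in pool 400, which gave 12 RNA libraries of polyp tissue. These are back-reef pools, of which pool 300 is known as the more thermally variable. Corals 2, 7 and 75 originated in pool 300 and corals 40, 68 and 70 in pool 400, so each of the 4 combinations of origin and pool holds 3 fragments. No agent was given: the fragments were moved in one August, lived in the pool and were all taken close to noon in the August after.

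In animals the clock is a feedback loop in which a dimer of CLOCK and BMAL1 switches on genes whose products, among them vertebrate-type cryptochromes, shut the dimer off again. Cryptochromes are flavoproteins related to the DNA-repairing photolyases, some are blue-light sensors, and in Acropora corals their transcripts are known to follow the daily light cycle. TEF is a PAR-type bZIP activator that in mammals carries the clock's output and in zebrafish responds to light. Since every fragment was taken around noon, these libraries hold 1 phase of the day and no rhythm can be read from them.

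The deposited values are read counts divided by a library factor, and the recovered totals ran from 557339 to 1643526 reads. In pool 300 the deposited factors were 0.998 to 1.005 times the median-ratio factors computed from the reads, and in pool 400 the ratio ran from 0.641 in coral 70 to 1.29 in coral 2, so values were also computed with median-ratio factors ("rescaled"). Values below are on the deposited scale unless called rescaled. Over contigs, the pool 300 fragment of coral 40 resembled the pool 400 fragment of coral 68 more (Pearson r = 0.909) than its own (0.842), and that of coral 68 resembled the pool 400 fragment of coral 40 more (0.880 against 0.856). In the other 4 corals the own fragment was the most alike, at 0.879 to 0.914. Counts of corals and coral identity were therefore also computed after a swap of their pool 400 fragments. The marker lists for cnidocytes, muscle, germ line, cilia, symbiont and skeleton or pigment cells had 2, 34, 11, 52, 2 and 5 contigs, and each contig had reads in at least 1 library. In bulk tissue, fewer cells of a type and less RNA per cell cannot be told apart.

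Of the 19 contigs, 12 reached a mean of 10 over the 12 libraries and were tested: 6 cryptochromes, 3 ARNTL1 contigs, TEF, 1 timeless homolog and the TIMELESS-interacting protein. Between the pools, no contig of the 12 passed limma's adjusted p of 0.05 over the 11903 contigs tested. The one with the smallest p, TEF, was higher in pool 300 in 5 of 6 corals, by 0.47 ± 0.14 (SE) on the log2(value + 1) scale. The cryptochromes lay within 0.11 log2 of equality between pools on average, although single corals ran from -0.77 to 0.72 log2.

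The pool difference was called in 41 of 11903 contigs, or 0.344%, and in 0 of the 12 clock and cryptochrome contigs by limma, by edgeR and by DESeq2. At an unadjusted p under 0.05 limma took in 4.87% of all contigs and 1 of these 12, TEF. The plot of pool differences shows TEF alone with an interval that leaves out 0, on both scales.

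**Figure D1:**
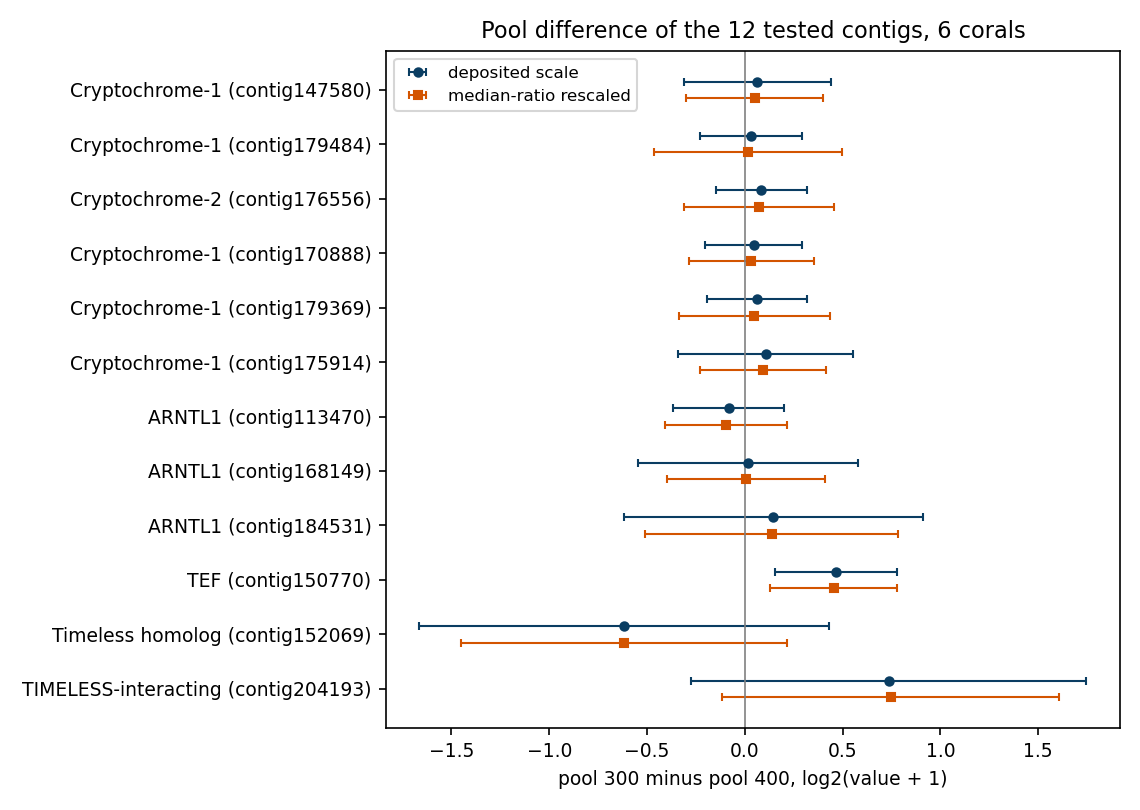
The x axis is the mean difference of pool 300 minus pool 400 on the log2(value + 1) scale over 6 corals, with the coral as a block, and bars are 95% confidence intervals from limma. Blue circles use the deposited values and orange squares the rescaled ones; TEF sits at 0.47 and 0.45, while the 6 cryptochromes sit between 0.02 and 0.11 on both scales.

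TEF (contig150770) had 4162 reads in all. Its normalized read counts in pool 300 were 424 in coral 2, 384 in coral 7, 376 in coral 75, 258 in coral 40, 370 in coral 68 and 383 in coral 70. In pool 400 they were 235, 256, 212, 183, 302 and 450 in the same order. The pool 300 fragments lay close together except for the low value of coral 40, and the pool 400 fragments were lower in every coral but coral 70, whose value was the highest of all 12. The means were 366 ± 56.2 (SD, n = 6) in pool 300 and 273 ± 95.6 in pool 400.

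Per coral the log2 difference of TEF, pool 300 minus pool 400, ran from -0.23 in coral 70 to 0.85 in coral 2, with a mean of 0.47 (95% interval 0.15 to 0.78). The unadjusted limma p was 0.00779 and the adjusted p 0.463. An exact two-sided sign-flip permutation test over the 6 corals gave p = 0.0625. The pool 400 library of coral 70 is the deepest and the one whose deposited factor departs most from the median-ratio factor. Rescaled, its TEF value was 289, all 6 corals were higher in pool 300, by 0.24 to 0.98 log2, and the exact permutation p was 0.0312, the smallest that 6 corals can give. The rescaled mean of 0.45 had a limma adjusted p of 0.532. After that swap between corals 40 and 68, 4 of 6 corals were higher on the deposited scale and 5 of 6 on the rescaled one. The exact sign-flip permutation p was then 0.125 and 0.0625. Without coral 70, the only coral lower in pool 300 as deposited, the deposited difference was 0.61, with a limma adjusted p of 0.0655. When any other single coral was left out, the limma adjusted p was 0.535 or more.

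**Figure D2:**
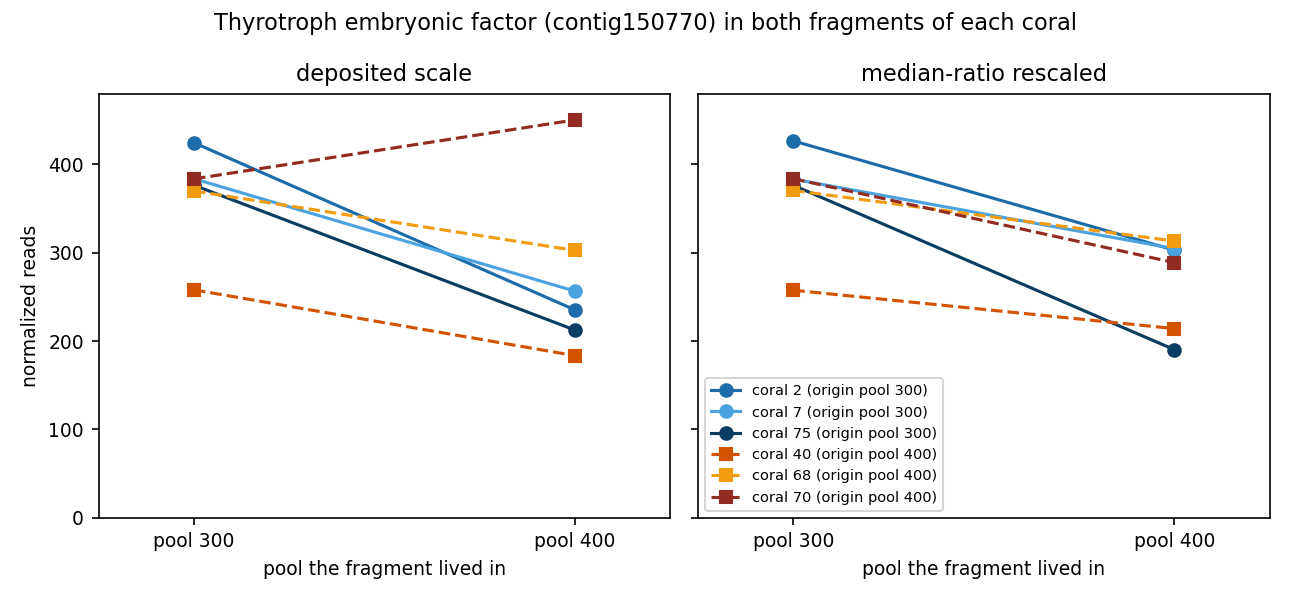
The y axis gives normalized reads of TEF (contig150770) and each line joins both fragments of 1 coral, in pool 300 and in pool 400; solid lines with circles are corals from pool 300 and dashed lines with squares corals from pool 400. On the deposited scale (left) the line of coral 70 rises from 383 to 450, and on the rescaled scale (right) all 6 lines fall.

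TEF separated the fragments of the corals that came from pool 300. In corals 2, 7 and 75 the mean was 395 ± 25.9 (SD, n = 3) in pool 300 and 235 ± 22.0 in pool 400, and the groups did not overlap on either scale. The log2 difference was 0.75 (SE 0.17, 95% interval 0.38 to 1.12), with an unadjusted limma p of 0.00113 and an adjusted p of 0.133. In these corals 66 contigs were called (0.554%), none of the 12 among them, and at an unadjusted p under 0.05 limma took in 4.71% of contigs. Every pool 300 fragment lay above every pool 400 fragment in 3.77% of all tested contigs, and below every one in 2.17%. When rescaled these shares were 2.5% and 3.85%. Of the 12, 1 lay above, which was TEF, and 0 below, on both scales. The muscle markers moved with TEF in these corals: their summed value was 3352 to 3411 in pool 300 and 2475 to 3026 in pool 400, although the ranges overlapped when rescaled (3351 to 3411 and 2711 to 3659). The summed cilia markers overlapped on the deposited scale (2078 to 2255 and 2105 to 2661) but did not when rescaled, at 2078 to 2266 in pool 300 and 2383 to 3077 in pool 400. Of the 5 skeleton and pigment contigs 1 was called lower in pool 300 in these corals on both scales, and the list's median difference was -0.32 log2 and -0.47 when rescaled. The part of these lists in the TEF difference was not tested.

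In corals from pool 400 TEF was 337 ± 68.9 (SD, n = 3) in pool 300 and 312 ± 134 in pool 400, overlapping groups with a log2 difference of 0.18 (95% interval -0.19 to 0.55) and a limma adjusted p of 1.0. There 0 contigs of the table were called by limma (0.0%), 0 by edgeR and 8 by DESeq2, none of them a clock or cryptochrome contig, and 2.05% had an unadjusted limma p under 0.05. The difference of TEF between origins in its pool effect was 0.57 log2 (SE 0.24), with an unadjusted limma p of 0.0369 and an adjusted p of 1.0. For that difference 0 contigs passed the adjusted threshold (0.0%) and 1.77% had an unadjusted p under 0.05. Rescaled, the TEF difference between origins was 0.30 with an unadjusted limma p of 0.363. Of the spread of TEF over the 12 libraries, 46.9% lay between corals, 32.8% between pools and 20.2% in the rest, the largest pool share among the 12 contigs. Rescaled, these shares were 42.5%, 44.0% and 13.4%, so the order of the coral and pool shares depended on the scale.

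The cryptochrome with the most reads was Cryptochrome-1 contig147580, with 5129. Its values in pool 300 were 321 in coral 2, 390 in coral 7, 474 in coral 75, 402 in coral 40, 289 in coral 68 and 420 in coral 70. In pool 400 they were 212, 284, 469, 295, 441 and 601. Corals 2, 7 and 40 were lower in pool 400, corals 68 and 70 were higher there, and coral 75 had nearly the same value in both. The mean difference was 0.06 log2 (95% interval -0.31 to 0.44). It was 0.36 (SE 0.21) in corals from pool 300 and -0.23 (SE 0.21) in corals from pool 400, and the difference between them, 0.58, had an unadjusted limma p of 0.0773 and an adjusted p of 1.0. After the swap between corals 40 and 68, the log2 differences of those corals went from 0.44 and -0.61 to -0.14 and -0.03. Rescaled, coral 70 turned from -0.52 to 0.12.

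Cryptochrome-1 contig179484 behaved otherwise. Its values in pool 300 were 469 in coral 2, 226 in coral 7, 337 in coral 75, 210 in coral 40, 396 in coral 68 and 339 in coral 70. In pool 400 they were 454, 279, 290, 253, 395 and 242. Coral 2 was the highest and, as labelled, coral 68 the next in both pools, and coral 40 was low in both. After the swap, coral 40 differed by -0.90 log2 between its fragments and coral 68 by 0.65. Of its spread, 86.8% lay between corals and 0.172% between pools. The test of coral identity, which asks whether the fragments of a coral are alike, called 592 of 11903 contigs (4.97%) and took in 26.0% at an unadjusted p under 0.05. It gave contig179484 an unadjusted limma p of 0.00432 and an adjusted p of 0.0626, the lowest of the 12, of which 0 were called by limma, edgeR or DESeq2. Without coral 70 the adjusted p was 0.0327, and after the swap it was 0.447. Rescaled it was 0.220.

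The recovered reads of contig179484 were nearly constant: 274 to 363 in every library, a 1.32-fold range, while the library totals spanned 2.95-fold. The slope of its log2 reads on the log2 library total was 0.218, where 1 means reads in proportion to the total. The median over all 11903 tested contigs, most of them of lower counts, was 1.31. Among the 2401 tested contigs with a mean of at least 100, 10.7% had a lower slope, and 49.6% lay below the 0.81 of ARNTL1 contig113470. Contig147580, by contrast, ranged from 128 to 868 reads with a slope of 1.55, and TEF from 142 to 650 with a slope of 1.19. Of the same 2401 contigs, 89.9% had a lower slope than contig147580 and 74.6% a lower slope than TEF. In pool 300 the lowest values of contig179484, 210 and 226, came from the deepest libraries, those of corals 40 and 7. Its highest, 469, came from the shallowest, that of coral 2. Within each pool, contig179484 fell with library depth over the 6 libraries. Pearson r was -0.997 in pool 300 and -0.869 in pool 400 on the deposited scale, and -0.997 and -0.98 when rescaled. Exact permutation tests gave adjusted p of 0.0667 and 0.0834, and of 0.0167 in both pools when rescaled. The values are reads divided by a factor that rises with depth, so nearly constant reads must give a negative r. These tests therefore restate the low slope and add no separate support. The median r of all tested contigs was 0.00301 and 0.565, and -0.00647 and -0.0462 when rescaled. An r of -0.8 or lower was found in 17.3% and 1.64% of them, and in 17.5% and 16.8% when rescaled. Cryptochrome-2 contig176556 also fell with depth, at -0.962 and -0.48, and at -0.963 and -0.982 when rescaled. For contig179369 r was -0.8 and 0.204, and -0.806 and -0.977 when rescaled. Contig147580 had positive r, at 0.487 and 0.701, and at 0.479 and 0.301 when rescaled. What part library depth has in the likeness of both fragments of a coral was not tested.

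**Figure D3:**
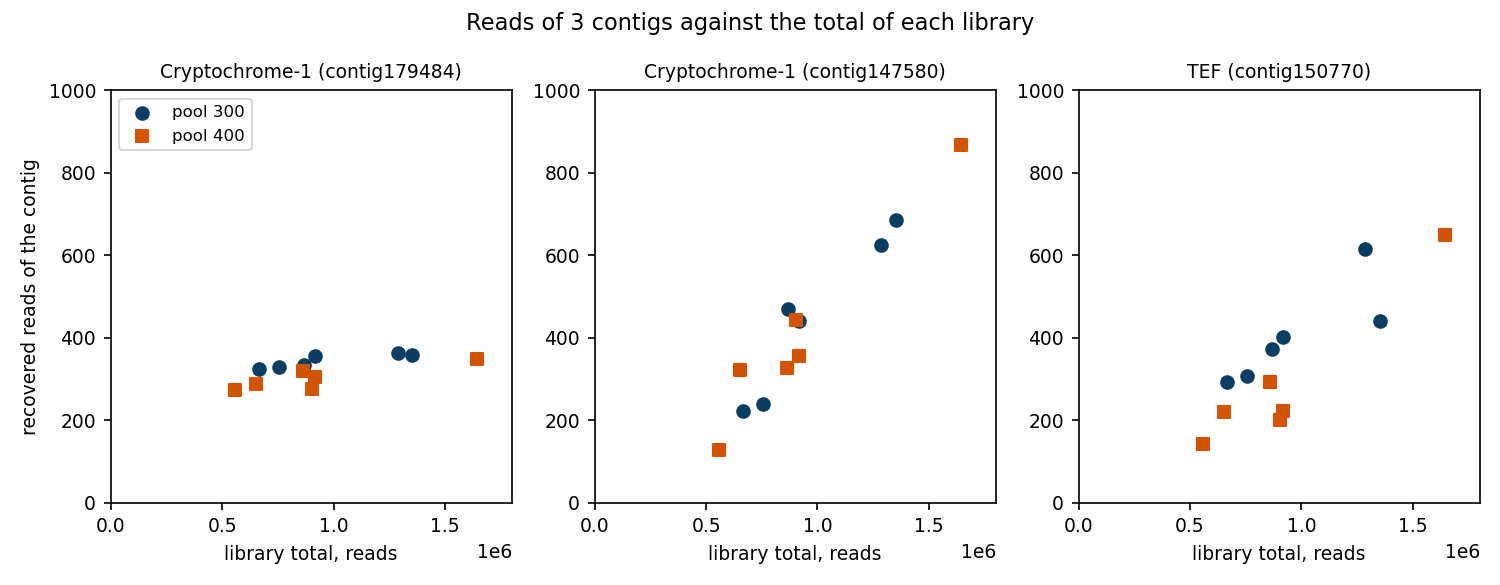
Each point is 1 library: the x axis gives the library total in reads and the y axis the recovered reads of the contig named above the panel, with blue circles for pool 300 and orange squares for pool 400. Cryptochrome-1 contig179484 stays between 274 and 363 reads, whereas contig147580 reaches 868 and TEF 650 in the deepest library.

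Cryptochrome-2 (contig176556), the one contig with that description, ran from 160 to 283 in pool 300 (median 229) and from 182 to 241 in pool 400 (median 208). The pool 400 range lay inside the wider pool 300 range, and the log2 difference was 0.08 (95% interval -0.15 to 0.32). Its reads, 132 to 302, followed the library totals with a slope of 0.632. Cryptochrome-1 contig179369 had medians of 159 and 146 and a log2 difference of 0.06 (95% interval -0.19 to 0.32).

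Cryptochrome-1 contig170888 was 158 in coral 2, 189 in coral 7, 227 in coral 75, 152 in coral 40, 210 in coral 68 and 220 in coral 70 in pool 300. In pool 400 it was 157, 167, 223, 142, 173 and 273. Corals 2, 75 and 40 differed little between pools. Of the 6 corals 5 were higher in pool 300 on the deposited scale, 4 after the swap and 3 when rescaled, with a mean of 0.05 log2 (95% interval -0.20 to 0.29). Coral identity took up 88.3% of its spread on the deposited scale (limma adjusted p = 0.13) and 54.9% when rescaled (adjusted p = 0.765). After the swap the limma adjusted p was 0.369.

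Cryptochrome-1 contig175914 was 123.1, 135 and 93.6 in the pool 300 fragments of corals 2, 7 and 75, and 96.1, 78.3 and 84.7 in those of corals 40, 68 and 70. In pool 400 it was 74.5, 85.4, 113, 79.3, 77.0 and 145 in the same order of corals. Corals 2 and 7 were higher in pool 300 by 0.72 and 0.66 log2, coral 70 had a difference of -0.77, and the groups overlapped. Rescaled, these were 0.36, 0.41 and -0.13. Higher in pool 300 were 4 of 6 corals, and 3 of 6 after the swap or when rescaled. The difference between origins in the pool effect, 0.52 log2 (SE 0.39), had an unadjusted limma p of 0.209.

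**Figure D4:**
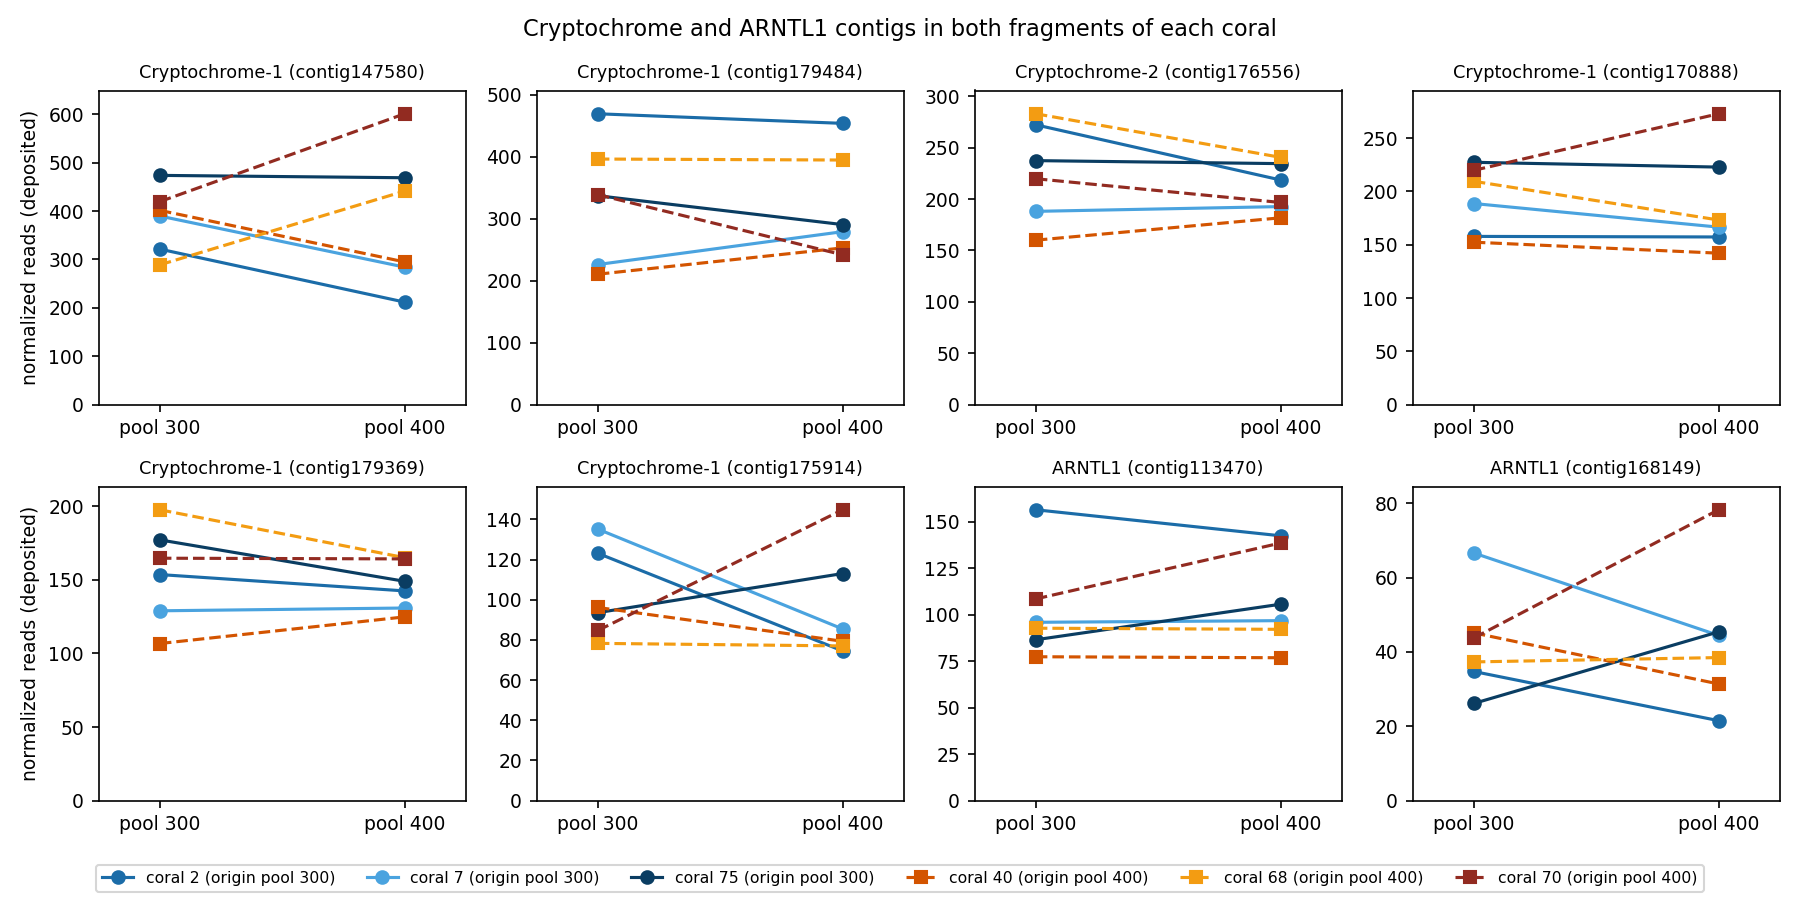
Each panel gives the deposited normalized reads (y axis, from 0) of 1 contig in pool 300 and pool 400, with a line for each of the 6 corals; solid lines with circles are corals from pool 300 and dashed lines with squares corals from pool 400. The lines of a panel cross and slope both ways. In every panel more of the spread lay between corals than between pools. This is no test of coral identity, since corals outnumber pools and so take up more of any spread. The shares ran from 30.9% against 2.75% in contig175914 to 91.0% against 1.66% in contig113470. The rest held 66.4% in contig175914 and 7.38% in contig113470.

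The remaining 5 cryptochrome contigs fell below the mean of 10, at 3.29 to 9.13, with 47 to 140 reads each. The highest of them, contig148624, lay just below the threshold and the TIMELESS-interacting protein, at 10.2, just above it. Of the 5, 3 had 0 reads in the pool 400 fragment of coral 2, the shallowest library, which by counting error alone allows up to 3 reads. When contigs of any mean were tested, none of the 7 low contigs was called in any comparison by limma, and between pools their adjusted p was 0.999.

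As a description over the 12 libraries, which share depth and scaling, Cryptochrome-2 had the highest correlations among the cryptochromes. Pearson r of log2(value + 1) was 0.842 between contig179484 and Cryptochrome-2 and 0.841 between Cryptochrome-2 and contig179369, and 0.951 and 0.919 when rescaled. Between contig179484 and contig179369 it was 0.610, below the 0.644 of contig170888 with contig179369, and 0.872 when rescaled. Contig179484, Cryptochrome-2 and contig179369 are also the 3 cryptochromes with the lowest slopes on the library total, at 0.218, 0.632 and 0.797. Contig147580 and contig170888 had r = 0.700 on the deposited scale and 0.0909 when rescaled.

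By the same measure, contigs most like contig147580 included Homeobox protein Nkx-2.5 (r = 0.982), Cytochrome b5 (0.962), Interferon-related developmental regulator 2 (0.957) and Coatomer subunit beta (0.951). Rescaled, their r with it was 0.766 to 0.890. Those most like TEF were Ankyrin-1 (0.932), a probable 4-hydroxy-2-oxoglutarate aldolase (0.920), Heat shock 70 kDa protein 12A (0.902), Fibropellin-1 (0.889) and Eukaryotic translation initiation factor 4 gamma 2 (0.889), which fell to 0.580 to 0.772 when rescaled.

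ARNTL1 is the partner of CLOCK in the activating dimer. Its contig with the most reads, contig113470 with 1328, was 156 in coral 2, 95.9 in coral 7, 86.5 in coral 75, 77.4 in coral 40, 92.7 in coral 68 and 108 in coral 70 in pool 300. In pool 400 it was 142, 96.8, 106, 76.8, 92.1 and 139. Corals 7, 40 and 68 had nearly the same value in both pools, coral 2 was the highest and coral 40 the lowest in each. Corals accounted for 91.0% of its spread on both scales and pools for 1.66% on the deposited one. The range of coral means was 0.94 log2, with an unadjusted limma p of 0.0191 for coral identity and an adjusted p of 0.121. The adjusted p was 0.238 after the swap and 0.139 when rescaled. The pool difference was -0.08 log2 (95% interval -0.37 to 0.20), with 3 corals higher in pool 300, or 2 after the swap and 1 when rescaled.

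ARNTL1 contig168149 ran from 26.2 to 66.6 in pool 300 and from 21.5 to 78.3 in pool 400, and contig184531 from 9.63 to 15.8 and from 5.78 to 22.2. On the deposited scale both had their highest pool 400 value in coral 70, and when rescaled in coral 7 (52.8) and coral 2 (19.2). Neither separated the pools: the intervals of the log2 differences were -0.54 to 0.58 and -0.62 to 0.91. The last ARNTL1 contig, contig71958, had a mean of 5.90, below the minimum. A contig of Neuronal PAS domain-containing protein 2 (contig69210), a CLOCK relative in mammals, had means of 5.05 and 5.84 in the pools.

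In the fly, timeless is a clock protein, whereas the mammalian TIMELESS protein travels with the TIMELESS-interacting protein and claspin at the replication fork. The timeless homolog contig152069 had 182 reads. Its values in pool 300 were 7.24 in coral 2, 13.1 in coral 7, 7.04 in coral 75, 17.0 in coral 40, 6.02 in coral 68 and 4.76 in coral 70. In pool 400 they were 3.31, 15.7, 24.3, 11.6, 11.0 and 31.2. It was higher in pool 400 in 4 of 6 corals, the groups overlapped, and the log2 difference was -0.62 (SE 0.47) with a limma adjusted p of 1.0. Rescaled it was -0.62 (SE 0.38), again with 4 of 6 corals higher in pool 400, as after the swap. In corals from pool 400 it was -0.91 (SE 0.70).

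The TIMELESS-interacting protein contig204193, with 146 reads, leaned the other way. It was 8.69, 13.7, 12.1, 14.1, 8.43 and 12.4 in the pool 300 fragments of corals 2, 7, 75, 40, 68 and 70. In pool 400 it was 3.31, 1.74, 12.7, 11.6, 2.75 and 20.8. Corals 2, 7 and 68 were much lower in pool 400, coral 70 was higher, and the pool 400 range enclosed that of pool 300. Of the 12 contigs, the timeless homolog and contig204193 had the steepest slopes of log2 reads on the log2 library total, at 2.33 and 2.41. In pool 400 the libraries of corals 2 and 68 were the shallowest and that of coral 70 the deepest. The library of coral 7, which had the lowest value, held 860958 reads, near the 903234 of coral 75, whose value was 12.7. What part depth had in these values was not tested. Rescaled, contig204193 was 12.4 in pool 300 and 13.3 in pool 400 in coral 70. The log2 difference was 0.74 (95% interval -0.28 to 1.75, limma adjusted p of 1.0) over all corals and 1.18 (SE 0.67) in corals from pool 300, on counts as low as 2 reads. It was higher in pool 300 in 4 of 6 corals, in 3 after the swap and in 5 when rescaled, where the difference was 0.75 (SE 0.39). The second timeless homolog, contig157608, had 49 reads and a mean below the minimum.

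Pool of origin was compared on the means of both fragments, 3 corals against 3. The origin effect was called in 4 contigs (0.0336%), none of the 12, and 2.64% of contigs but none of the 12 had an unadjusted limma p under 0.05. The 3 smallest p belonged to contig113470, contig147580 and the TIMELESS-interacting protein, with log2 differences of origin 300 minus origin 400 of 0.22 (SE 0.29), -0.20 (SE 0.27) and -0.45 (SE 0.63). Exact two-sided permutation tests over corals gave p = 0.5, 0.5 and 0.6, where the smallest p that 3 against 3 allows is 0.1. The coral means of contig113470 were 96.1 to 149 in corals from pool 300 and 77.1 to 124 in corals from pool 400, overlapping ranges.

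Around the clock contigs, other genes of the same circuits were read from lists chosen by description, and each list's median pool difference is set beside 0.03 log2, the median of all tested contigs. When rescaled, the 7 list medians were -0.16, 0.06, -0.25, 0.15, -0.04, -0.07 and -0.03 in the order described here, beside 0.02 for all contigs. Of 9 tested clock kinases and ligase adaptors, the enzymes that mark clock proteins for degradation, 0 were called and the median was -0.15. Casein kinase I isoform gamma-3 (contig70747) was 139 ± 18.7 (SD, n = 6) in pool 300 and 110 ± 24.9 in pool 400. It was higher in 5 of 6 corals and in 6 of 6 when rescaled, with a limma adjusted p of 0.948. Isoforms alpha (contig109444) and epsilon (contig105779) went the other way, at -0.46 and -0.25 log2, with unadjusted limma p of 0.175 and 0.352. Alpha was lower in pool 300 in 4 of 6 corals, or 5 when rescaled, and epsilon in 5 of 6 on both scales. Of 10 other bHLH-PAS factors, the family of CLOCK, 0 were called, with a median of 0.07.

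Among 13 CREB, ATF and C/EBP factors, bZIP proteins like TEF that answer cyclic AMP and stress, 0 were called and the median was -0.24. The contig of cAMP-responsive element modulator (contig145275) was 98.5 ± 25.1 (SD, n = 6) in pool 300 and 189 ± 75.5 in pool 400. It was lower in pool 300 in 6 of 6 corals, and in 5 of 6 when rescaled, by 0.87 log2 (SE 0.20). Its unadjusted limma p was 0.00142 and its adjusted p 0.153. The contigs of CCAAT/enhancer-binding protein beta had log2 differences of -1.19 and -1.42, with limma adjusted p of 0.448 and 0.623. TEF had the opposite sign to the 3 bZIP contigs of smallest p in this list.

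Of 14 nuclear receptor, HES and deacetylase repressors, which close feedback loops in many tissues, 0 were called and the median was 0.16. The 2 contigs of Transcription factor HES-1 differed in sign, at -0.30 (contig155230, limma adjusted p = 0.583) and 0.86 (contig168077, adjusted p = 0.978). Of 14 light sensing contigs, such as opsins, melatonin receptors and cyclic nucleotide-gated channels, 0 were called, 0 had an unadjusted limma p under 0.05 and the median was -0.03. Of 8 excision repair contigs 0 were called, with a median of -0.07.

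The fork protection and checkpoint list had 1 called contig of 18, and it fell in pool 300. Claspin (contig107904) was 41.8 ± 8.44 (SD, n = 6) in pool 300 and 177 ± 78.5 in pool 400, a log2 difference of -1.93 with a limma adjusted p of 0.0205, lower in 6 of 6 corals on both scales. Rescaled, the difference was -1.94 with an adjusted p of 0.0911. In corals from pool 300 it was called on both scales, at -2.56 (limma adjusted p = 0.00429) and -2.71 (0.0172). The median of that list was -0.01. Of claspin's partners, the timeless homolog had the same sign as claspin, at -0.62, and the TIMELESS-interacting protein the opposite sign, at 0.74. Neither of them was called.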

How the data were processed

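Polyp RNA of 6 corals, each with a fragment in pool 300 and in pool 400, was read from TruSeq libraries, per the labels. The tools listed, per the submitters' processing notes, are BWA and DESeq; their versions and roles are not given in the sources used here. The deposited values are a signal: the authors divided read counts by a library factor, as the values show: divided by the smallest step of its library, each came out whole at a tolerance of 0.01, with 1 exception that was read as 0. The pool 400 columns are marked as adjusted, per the file headers, without further detail. The table's 9 columns of group means and SDs were not used here. The median recovered depth was 885480 reads.

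Contigs with a mean of at least 10 (11903) went into limma 3.58.1 (R 4.3.3; variance trend) on a log2(value + 1) scale, on which folds of low contigs are understated. P-values were adjusted after Benjamini and Hochberg, with calls at 0.05. Coral was a block in pool effects, because a coral's fragments are 1 animal; origin was tested on coral means, and coral identity by a moderated F test with pool as a term. The fits were tested on simulated data. edgeR 4.0.16 and DESeq2 1.42.0 were run on the recovered reads, and pseudocounts, minimum means, scaling, pairing and samples were varied. Counting intervals cover counting error only.

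The members and lists were chosen with earlier results of these data known. Values in every library were given for the 3 members of smallest p in each comparison and for any member called; of each list, contigs were taken by smallest p in the pool effect, and the 5 contigs most alike by Pearson r, of which 1 is not reported here. A germ line pattern was corrected after its matches were seen. Levels are not compared between contigs, since contig lengths and sequences were not used here.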

Additional observations from a re-analysis of the deposited data

Results flagged for a closer look

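In pool 300 the TEF value of coral 40, 258, lay far from the other 5 fragments, which were at 370 to 424. Of 24 groups of 6 libraries looked at this way, 1 had a sample this far out, and chance marks about 1 in 20 groups. The pool 400 fragment of coral 40 also had the lowest TEF value on the deposited scale, 183. When corals 40 and 68 swap their pool 400 fragments, coral 40 was lower in pool 300 by 0.23 log2.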

How the results depend on the processing

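None of the 12 contigs was called in any comparison under any setting run, except contig179484 in coral identity without coral 70 (adjusted p = 0.0327), so that leaving out a coral gave 0 to 1 called members there. The TEF pool difference stayed positive under all settings, from 0.39 to 0.61 log2, with a limma, edgeR or DESeq2 adjusted p of 0.0655 or more.

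Both fragments of a coral come from 1 animal, so the coral was the replicate block of the main fits. Without the replicate block 33 contigs were called between pools against 41, and 42 against 66 in corals from pool 300. When corals 40 and 68 swapped pool 400 fragments in the block, 63 contigs were called between pools; the block changed no call of the 12.

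Counts over all contigs moved more. Rescaling gave 8 between pools, 2 for the difference between origins, 1 for origin and 393 for coral identity. edgeR gave 8 between pools, 43 in corals from pool 300 and 1 for the difference between origins. DESeq2 gave 104, 116 and 2 for these, 8 in corals from pool 400, 42 for origin and 1223 for coral identity. Without corals 40 and 68, 0 were called between pools and 0 for origin. Of the settings chosen after seeing the data, rescaling with the exchanged block gave 1 between pools, 1 for origin and 912 for coral identity, and rescaling without corals 40 and 68 gave 0, 0 for origin, 18 for the difference between origins and 137 in corals from pool 300. Leaving out each coral gave 4 to 74 between pools, 9 to 94 in corals from pool 300, 0 to 2 for the difference between origins, 2 to 12 for origin and 112 to 863 for coral identity.

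The sign turned in 4 values, none of them called. The origin effect of contig113470 became -0.139 without corals 40 and 68, and that of contig147580 ran from -0.422 to 0.00326 when each coral was left out, turning without coral 2. In corals from pool 400, which then hold coral 70 alone, TEF became -0.231 without corals 40 and 68 and contig147580 0.123 when also rescaled. The causes were not tested. Depth limits the timeless contigs and the 7 low contigs, with 2 to 45 reads per library in the tested timeless homolog.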
